A study of Mus musculus with 6 samples.

Results

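A set of 9 genes that move sodium and chloride across epithelia was followed through the corneal epithelium of mice lacking Rela. The genes were chosen by symbol, as the rows of the expression table for Scnn1a, Scnn1b, Scnn1g, Slc12a2, Cftr, Ano1, Clcn3, Atp1b1 and Atp1b3, out of 17866 genes in all. The rule uses symbols alone, but the set was drawn up with earlier results of these data known. Bulk RNA-seq libraries came from the separated corneal epithelium of C57BL/6 mice at 6 months of age. Of the 6 libraries, 3 were labelled wild type (WT) and 3 were labelled Rela knockout (KO). In the study the knockout mice were Krt14-Cre; Rela f/f, in which a floxed Rela allele is removed by a Cre recombinase driven from the keratin 14 promoter. That promoter is active in the epithelia of the ocular surface, conjunctiva included, so deletion is not limited to the cornea. The paper reports that the central corneal epithelium of the knockout mice was lost before the age sampled here. In its account a new, keratinized and epidermis-like epithelium then covered the central cornea, while periphery and limbus looked unaltered. The KO libraries thus include this changed tissue, and its part in the differences below was not tested. The sources used here do not say which floxed or Cre alleles the WT mice carried, or whether the epithelium of several eyes or mice was pooled in a library.

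The corneal epithelium moves chloride from the stroma to the tears and takes sodium back from them. The sodium-potassium pump keeps sodium low inside the cell, and the cotransporter NKCC1 (Slc12a2) uses that gradient to load chloride across the basolateral membrane. Chloride then leaves through apical channels, of which CFTR is opened by cyclic AMP and ANO1 by calcium. Sodium enters from the surface fluid through the epithelial sodium channel (ENaC), built from α, β and γ subunits encoded by Scnn1a, Scnn1b and Scnn1g. The α subunit is needed for a working channel, and the β and γ subunits raise its current. CLC-3, encoded by Clcn3, exchanges chloride for protons mainly in endosomes. ATP1B1 and ATP1B3 are alternative β subunits of the pump, which bring its catalytic α subunit to the membrane.

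Library totals lay between 20158404 and 20880347 estimated counts, so 3 counts stood for between 0.137 and 0.152 CPM (counts per 1000000, with library totals scaled by edgeR's TMM factors). Intervals and floors built on counts cover counting error only. Rela had between 1844 and 1871 counts in the WT libraries and between 223 and 318 in the KO libraries, and 16.5% of its WT level was left. All 7 corneal epithelial markers (Krt12, Krt5, Pax6, Aldh3a1, Tkt, Slurp1 and Upk1b) were measured and all 7 were lower in KO. Their summed level was between 94555 and 97291 CPM in WT and between 21896 and 24939 CPM in KO. Krt5 alone had a mean of 26958 CPM in WT and 10547 CPM in KO, a large part of the KO sum. All 5 epidermal markers were higher, from a summed level of between 15.1 and 20.3 CPM to between 11563 and 23959 CPM. The 5 conjunctival and goblet cell markers were also all higher, from between 1755 and 2754 CPM to between 51948 and 66752 CPM, and among them Muc5ac was at 0 in every WT library. Of the keratocyte markers, 4 of 4 tested were higher (summed level 0.687 to 2.70 CPM in WT and 12.6 to 22.4 CPM in KO). Lum, at 0 in WT, had only 2, 4 and 1 counts in KO and was too low to be tested. Of the immune cell markers, 4 of 5 tested were higher (36.7 to 39.4 CPM and 83.0 to 131 CPM). The share of any of these cell types in the differences below was not tested, and in bulk RNA fewer cells of a type and less RNA per cell cannot be told apart.

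The promoters of the 3 genes with the largest differences between genotypes are shown first, because Rela encodes a subunit of NF-κB and the sequences let a reader see where its motif does and does not occur. Each is the RefSeq sequence (GRCm38.p6) of 300 bases, from 250 before the annotated start, written 5′ to 3′ on the gene's own strand. Capitals mark matches on either strand to the NF-κB consensus or to the GC box GGGCGG. Scnn1g lies at chr7:121734229-121734528 on the plus strand, Scnn1b at chr7:121864788-121865087 on the plus strand and Ano1 at chr7:144738524-144738823 on the minus strand.
Scnn1g: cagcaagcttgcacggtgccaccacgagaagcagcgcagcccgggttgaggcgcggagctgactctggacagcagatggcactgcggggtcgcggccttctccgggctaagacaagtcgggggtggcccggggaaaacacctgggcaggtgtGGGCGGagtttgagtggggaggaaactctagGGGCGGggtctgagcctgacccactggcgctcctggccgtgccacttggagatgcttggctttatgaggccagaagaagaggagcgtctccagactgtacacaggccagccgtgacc
Scnn1b: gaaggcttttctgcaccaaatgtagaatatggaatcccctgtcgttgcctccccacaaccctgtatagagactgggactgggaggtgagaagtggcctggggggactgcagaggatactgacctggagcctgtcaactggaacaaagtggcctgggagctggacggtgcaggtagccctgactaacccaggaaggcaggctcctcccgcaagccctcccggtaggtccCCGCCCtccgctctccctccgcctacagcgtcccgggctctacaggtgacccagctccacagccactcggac
Ano1: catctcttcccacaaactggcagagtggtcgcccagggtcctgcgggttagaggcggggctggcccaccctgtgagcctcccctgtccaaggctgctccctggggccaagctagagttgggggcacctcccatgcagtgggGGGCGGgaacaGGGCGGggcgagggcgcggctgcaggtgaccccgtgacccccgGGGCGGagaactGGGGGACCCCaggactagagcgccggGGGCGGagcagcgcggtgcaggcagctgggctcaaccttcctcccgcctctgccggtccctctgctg
The Ano1 window held 1 NF-κB match, beginning at position -43 from the start, and 4 GC boxes. Scnn1g held 2 GC boxes, at -98 and -67, and Scnn1b held 1, at -22, and neither held an NF-κB match. Over 32851 mouse promoters of the same length, 8.46% held the NF-κB consensus and 35.7% held a GC box. No match to AP-1 (TGANTCA), the TATA box (TATAAA) or the glucocorticoid response element was found in these 3 windows, and those motifs occurred in 7.81%, 13.6% and 0.0639% of all promoters. Promoters of 7 of the 9 genes were in the RefSeq table (9 sequences, since Clcn3 and Atp1b3 each have 2 starts), and among these 9 sequences the Ano1 window was the only one with an NF-κB match. Scnn1a and Slc12a2 had no entry. The Ano1 start used by RefSeq lies inside the interval that the expression table gives for the gene, so the window is not the only possible promoter. A match is a description of letters, not a measured binding site, and sites outside a window or with other letters were not sought. The NF-κB site that the paper reports for the gene Aldh1a1 lies farther from the start than these windows reach.

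Between genotypes, the genes fell into 3 patterns. Scnn1b, Scnn1g and Ano1 went from almost no reads to clear expression in KO, Atp1b1, Atp1b3 and Clcn3 were higher by smaller amounts, and Slc12a2 fell. Scnn1a, the most abundant ENaC subunit, showed no detectable difference, and Cftr had too few reads for the test. Of the 8 genes tested, 7 passed an adjusted p of 0.05 in edgeR's quasi-likelihood test, 6 higher and 1 lower in KO. Across all 13305 genes tested the share called was 62.0%, with 31.8% higher and 30.2% lower, so a call by itself was common in these libraries. The study itself required a fold of 2 or more with an adjusted p no higher than 0.001, and 4 of the 8 met this, 3 higher and 1 lower, against 19.8% of all genes (11.6% higher and 8.24% lower). The WT and KO values did not overlap for 7 of the 8, against 68.6% of all genes, of which 34.7% were higher in KO and 33.9% lower. A log2 fold change of at least 4 was rarer, reached by 3.95% of all genes tested and by Scnn1b, Scnn1g and Ano1. The median log2 fold change of the 8 was 1.26, beside 0.01 for all genes. The plot of values by library shows these patterns.

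**Figure D1:**
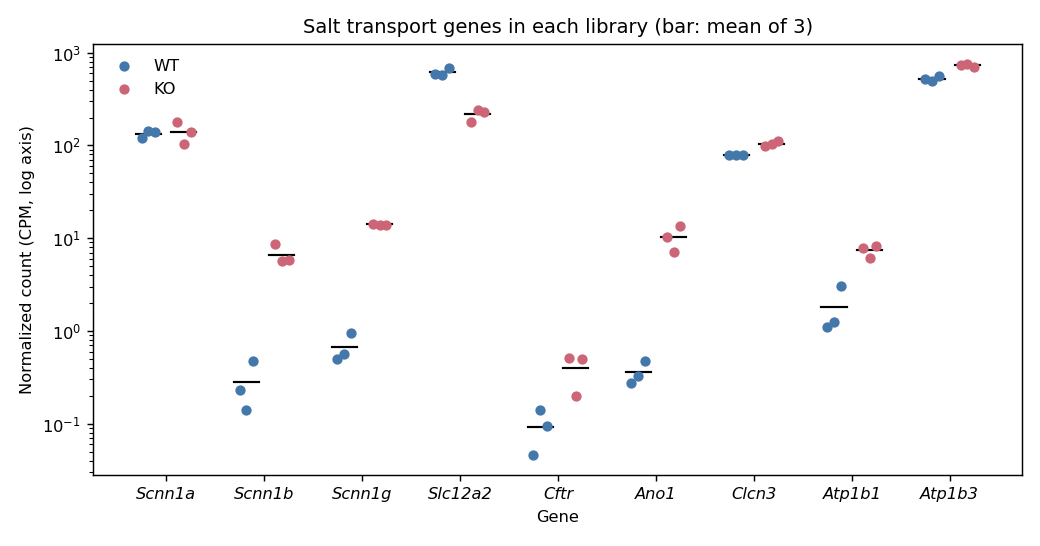
Normalized counts (CPM, log axis) of the 9 genes in the 3 WT (blue) and 3 KO (red) libraries, with the mean of each group as a bar. For Scnn1b, Scnn1g and Ano1 all KO points stand far above all WT points, for Slc12a2 they stand below, and for Scnn1a they overlap.

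The sodium channel came first in the comparison. Scnn1a (gene 20276, chromosome 6, 125321052 to 125344943, GRCm38, plus strand) encodes the pore-forming α subunit. Its WT libraries held 2639, 3048 and 2930 counts and its KO libraries 3539, 2068 and 2815. The KO values spread widely, from below every WT library to above every one. Mean levels were 134 ± 11.3 CPM in WT and 141 ± 37.8 CPM in KO (SD, n = 3 each). The log2 fold change was 0.08 (standard error 0.180, adjusted p = 0.733), with a 95% interval from -0.34 to 0.49. Its sign was not stable, since it was -0.02 with scaling by library totals, -0.02 by limma on log2(FPKM + 1) and -0.13 without KO replicate 1.

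Scnn1b (gene 20277, chromosome 7, 121865038 to 121919029, plus strand) encodes the β subunit. It had 5, 3 and 10 counts in WT, against 169, 113 and 116 in KO. The WT libraries were close to the floor of 3 counts, and every KO library was more than an order of magnitude above the highest of them. Its mean rose from 0.281 ± 0.173 to 6.67 ± 1.64 CPM (SD, n = 3 each), a ratio of 23.8. The log2 fold change was 4.55 (standard error 0.384, adjusted p = 2.7e-05, 95% interval 3.67 to 5.43).

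Scnn1g (gene 20278, chromosome 7, 121734421 to 121768482, plus strand) encodes the γ subunit. WT libraries held 11, 12 and 20 counts, against 281, 278 and 281 in KO. The KO libraries were nearly equal, in contrast to the spread of Scnn1a in the same libraries. Its mean level rose from 0.670 ± 0.242 to 14.1 ± 0.152 CPM (SD, n = 3 each), with a log2 fold change of 4.38 (standard error 0.222, adjusted p = 2.1e-06).

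The make-up of ENaC transcripts was compared within each library on the FPKM scale, which is per transcript length and does not depend on scaling between libraries. Scnn1a made up 99.3%, 99.5% and 98.8% of the summed FPKM of the 3 subunits in WT and 87.5%, 82.7% and 86.4% in KO. Its share was 13.7 percentage points lower in KO, at 85.5 ± 2.48% against 99.2 ± 0.325% (SD, n = 3 each). The Scnn1g share was 0.545 ± 0.174% in WT and 9.61 ± 2.23% in KO, and that of Scnn1b 0.255 ± 0.155% and 4.88 ± 0.538%. All 3 shares were without overlap between genotypes, and each had p = 0.1 in a two-sided exact permutation test, the smallest value that 3 against 3 libraries allow. The shares add up to 100%, so these are not separate tests, and they restate the counts above on another scale. The α transcript stayed the most abundant of the 3 in every KO library.

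**Figure D2:**
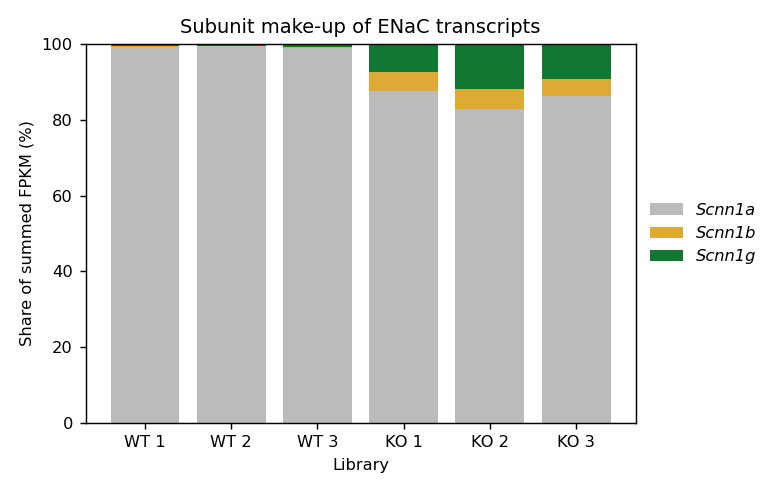
Share of each ENaC subunit (%) in the summed FPKM of Scnn1a, Scnn1b and Scnn1g, as 1 stacked bar per library. The Scnn1a share lies between 98.8% and 99.5% in WT and between 82.7% and 87.5% in KO, with the remainder mostly Scnn1g.

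Scnn1g and Scnn1b are neighbours on chromosome 7, 96555 bases apart, with no protein-coding gene between them in GENCODE M21. No gene beside this pair that could be tested was called higher. Usp31, on the Scnn1g side, had a log2 fold change of 0.13 (adjusted p = 0.351). On the Scnn1b side Cog7, of the Golgi tethering complex, fell by 0.78 on the log2 scale (adjusted p = 0.00034) and Gga2, a Golgi sorting adaptor, by 0.86 (adjusted p = 0.0013). Cog7 overlaps Scnn1b on the other strand in the annotation, and the sources do not say whether reads were counted by strand. In the coordinates deposited with the counts the 2 genes do not overlap, since Scnn1b ends at 121919029 and Cog7 begins at 121922836. Whether reads of Cog7 were counted with Scnn1b was not tested.

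WT replicate 3 had the most reads of the WT libraries for Scnn1b and Scnn1g, and also for Ano1 and Atp1b1 described below. The same library had the highest summed conjunctival and goblet cell markers in WT, at 2754 CPM against 1755 and 1857 CPM. It was also the highest WT library for the summed markers of immune cells, corneal endothelium, melanocytes and blood vessels. Its immune cell sum was 39.4 CPM, against 36.7 and 38.3 CPM, and its corneal endothelial sum 19.6 CPM, against 15.6 and 14.5 CPM. It was not the highest for corneal epithelial, epidermal or keratocyte markers. The part of any of these cells in the result was not tested. Without WT replicate 3 the log2 fold change of Scnn1b was 5.14 (adjusted p = 7.8e-05).

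Proteins that act on ENaC gave 1 rise and 6 falls among 11 tested, a share called of 63.6%, close to the 62.0% of all genes. The same background stands beside the count of each list that follows. Sgk1, the aldosterone-induced kinase that keeps ENaC at the surface, had a log2 fold change of 0.38 (standard error 0.118, adjusted p = 0.0201), which missed the threshold with scaling by library totals (0.29, adjusted p = 0.0554), without WT replicate 2 (0.29, adjusted p = 0.064), without KO replicate 2 (0.36, adjusted p = 0.051) and without KO replicate 3 (0.38, adjusted p = 0.05). The related kinase Sgk3 fell by 1.49 (adjusted p = 4.7e-05), from 115 ± 9.42 to 40.9 ± 7.37 CPM (SD, n = 3 each). Tsc22d3, which encodes the glucocorticoid-induced protein GILZ, fell by 1.74 on the log2 scale (adjusted p = 2.2e-05). Outside the rule for named genes, and chosen after their values were seen, Nedd4l, the ubiquitin ligase that removes ENaC from the membrane, fell by 0.96 (adjusted p = 7.0e-05) and Nr3c1, the glucocorticoid receptor, by 1.04 (adjusted p = 3.3e-05). Prss8, a protease that activates the channel, was also chosen in this way and had a log2 fold change of -0.06 (adjusted p = 0.739).

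Slc12a2, which loads chloride, fell where Scnn1b and Scnn1g rose. The gene (20496, chromosome 18, 57877715 to 57946821, plus strand) had 12718, 12219 and 14490 counts in WT. In KO it had 3506, 4854 and 4587. Every KO library was below every WT library, and Slc12a2 remained among the more abundant of the 9 genes. Its mean level fell from 612 ± 64.2 to 217 ± 34.6 CPM (SD, n = 3 each), which left 35.4% of WT. The log2 fold change was -1.50 (standard error 0.144, adjusted p = 5.1e-05, 95% interval -1.83 to -1.17), and it lay between -1.60 and -1.34 over the 14 alternative settings. The summed corneal epithelial markers fell in the same libraries, as given above, and their part in the Slc12a2 result was not tested.

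Of the 6 cation-chloride cotransporters tested, 1 rose and 3 fell. Slc12a7, the potassium-chloride exporter KCC4, rose by 1.06 on the log2 scale (adjusted p = 0.00013), from 10.9 ± 1.43 to 22.8 ± 0.437 CPM (SD, n = 3 each). Slc12a7 and Slc12a2 thus changed in opposite directions.

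WNK kinases act on these cotransporters through SPAK, which activates NKCC1 by phosphorylation. Among 7 genes of that pathway tested, 3 rose and 1 fell. Stk39, which encodes SPAK, had 45, 54 and 100 counts in WT, against 516, 406 and 462 in KO, a log2 fold change of 2.90 (standard error 0.277, adjusted p = 4.9e-05). Wnk2 fell by 3.05 on the log2 scale (adjusted p = 1.0e-05), from 111 ± 31.4 to 13.4 ± 1.95 CPM (SD, n = 3 each). Cul3, the scaffold of the ligase that degrades WNK kinases, rose by 0.50 (adjusted p = 0.0024). SPAK transcripts were thus higher in the libraries where those of its substrate NKCC1 were lower.

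Of the chloride channels and exchanger encoded by Ano1, Cftr and Clcn3, the calcium-activated channel differed most in fold. It is TMEM16A, encoded by Ano1 (gene 101772, chromosome 7, 144588549 to 144752045, minus strand). Its WT libraries had 6, 7 and 10 counts and its KO libraries 205, 141 and 270. All KO libraries were far above all WT libraries, and the KO libraries differed among themselves by nearly as much as their lowest value. Mean levels were 0.358 ± 0.103 CPM in WT and 10.3 ± 3.19 CPM in KO (SD, n = 3 each), a ratio of 28.8. An antisense transcript, Gm44930, overlaps Ano1 in the annotation. The log2 fold change was 4.83 (standard error 0.338, adjusted p = 1.0e-05, 95% interval 4.05 to 5.60). Among KO libraries replicate 2 was lowest for Ano1, and it was also lowest for 3 of the 5 conjunctival and goblet cell markers, Muc5ac (0.75 CPM, against 7.14 and 10.7 CPM), Spdef (3.51 CPM, against 10.9 and 10.2 CPM) and Agr2 (2.96 CPM, against 4.15 and 8.57 CPM). The sum of all 5, most of it from the keratins Krt13 and Krt4, was instead lowest in KO replicate 3 (51948 CPM, against 61338 CPM in replicate 2). KO replicate 2 was lowest as well in the summed epidermal (11563 CPM, against 23959 and 14641 CPM), immune (83.0 CPM, against 124 and 131 CPM) and keratocyte markers (12.6 CPM, against 18.3 and 22.4 CPM). The part of any of these cells in the Ano1 result was not tested.

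The other anoctamins gave no common direction. With Ano1 included, 7 were tested, of which 3 rose and 3 fell. Ano6, a phospholipid scramblase and ion channel, had 44, 72 and 67 counts in WT, against 488, 479 and 478 in KO, a log2 fold change of 3.09 (adjusted p = 4.1e-06). Ano4 had 322, 191 and 322 counts in WT, against only 10, 6 and 10 in KO, a log2 fold change of -4.88 (adjusted p = 6.35e-06). Ano10 fell by 1.43 (adjusted p = 7.7e-06). Ano1 and Ano4 thus moved in opposite directions in the same libraries.

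Cftr (gene 12638, chromosome 6, 18170262 to 18322774, plus strand) encodes the channel that is lost in cystic fibrosis. It had 1, 3 and 2 counts in WT, against 10, 4 and 10 in KO, too few to enter the test. All 3 KO libraries were above all 3 WT libraries, but the lowest KO library had only 1 count more than the highest WT library. The summed counts were 6 and 24, a ratio of 4.31 after scaling with an exact counting interval of 1.72 to 12.9, which covers counting error only. A two-sided exact permutation test on CPM gave p = 0.1, the smallest value possible with 3 against 3. When no filter on low counts was applied, edgeR gave Cftr a log2 fold change of 2.02 (standard error 0.648, adjusted p = 0.03). An antisense transcript (Gm15592) and a pseudogene (Gm15595) are annotated within Cftr, and reads from them could be counted with it. The level of Cftr stayed the lowest of the 9 genes in both genotypes.

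Partners of CFTR were abundant by comparison. Of 9 tested, 3 rose and 3 fell. Stx1a, a syntaxin that binds the channel, rose by 2.13 (adjusted p = 0.0002), from a mean of 0.898 ± 0.204 to 3.96 ± 0.672 CPM. Slc9a3r1, the scaffold NHERF1, rose by 0.48 (adjusted p = 0.008). Ezr, which ties that scaffold to actin, fell by 1.11 (adjusted p = 6.1e-05), from 847 ± 43.8 to 391 ± 37.5 CPM (SD, n = 3 each), and Adcy6, an adenylyl cyclase, fell by 1.42 (adjusted p = 0.00013). The scaffold and its actin linker thus changed in opposite directions.

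Clcn3 (gene 12725, chromosome 8, 60910389 to 60983311, minus strand) showed a small rise. WT libraries had 1707, 1688 and 1682 estimated counts and KO libraries 1952, 2061 and 2225. The WT libraries were almost equal, so that a small difference stood clear of them. Its mean went from 78.8 ± 0.758 to 104 ± 6.06 CPM (SD, n = 3 each), a log2 fold change of 0.41 (standard error 0.0814, adjusted p = 0.0026).

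Among 7 genes of the ClC family tested, 3 rose and 1 fell. Clcn5, an endosomal exchanger like Clcn3, rose by 1.88 (adjusted p = 1.9e-05), from 4.81 ± 0.810 to 17.8 ± 1.19 CPM (SD, n = 3 each). Clcn4, of the same branch, rose by 0.49 (adjusted p = 0.0013), whereas the lysosomal Clcn7 fell by 0.63 (adjusted p = 0.0005). Clcn3, Clcn4 and Clcn5 were the 3 that rose, and 57.1% of the family was called, beside 62.0% of all genes. Of the 5 subunits of the volume-regulated LRRC8 channel, 3 rose, Lrrc8e by 1.17 (adjusted p = 0.00079) and Lrrc8d by 0.81 (adjusted p = 0.004) among them, and Lrrc8b fell by 1.17 (adjusted p = 3.9e-05).

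Of 18 other chloride channel genes tested, 5 rose and 3 fell. Best2, a bestrophin, rose by 2.31 (adjusted p = 0.0012), and Clca2, a regulator of chloride conductance found in stratified epithelia, rose by 2.12 (adjusted p = 4.7e-06), from 21.8 ± 3.30 to 94.6 ± 6.79 CPM. The closely related Clca4a and Clca4b fell by 1.03 (adjusted p = 0.0016) and 0.93 (adjusted p = 0.0068), and reads can be shared between them. This list had the most genes tested, and 10 of them did not pass. The share called was 44.4%, beside 62.0% of all genes.

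The β subunits of the sodium-potassium pump were compared next. Atp1b1 (gene 11931, chromosome 1, 164437099 to 164459117, minus strand) encodes the β1 subunit. It had 23.7, 27.0 and 63.9 estimated counts in WT, against 153, 123 and 166 in KO. WT replicate 3 stood at more than double the other WT libraries, and still below every KO library. Mean levels were 1.80 ± 1.07 CPM in WT and 7.40 ± 1.09 CPM in KO (SD, n = 3 each). The log2 fold change was 2.04 (standard error 0.360, adjusted p = 0.0013, 95% interval 1.22 to 2.87), and it was 2.66 (adjusted p = 0.00015) without WT replicate 3. Atp1b1 overlaps Nme7 on the other strand in the annotation, and Nme7 had a log2 fold change of 0.24 (adjusted p = 0.16).

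Atp1b3 (gene 11933, chromosome 9, 96332662 to 96367438) encodes the β3 subunit and was the most abundant of the 9 genes per length. Its estimated counts were 11475, 10647 and 11718 in WT and 14563, 15209 and 13898 in KO. The groups did not overlap. Its level rose from 525 ± 29.8 to 731 ± 35.6 CPM (SD, n = 3 each), a log2 fold change of 0.48 (standard error 0.0999, adjusted p = 0.0033).

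Within the summed FPKM of the β subunits, Atp1b3 made up 99.8 ± 0.126% in WT and 99.3 ± 0.140% in KO (SD, n = 3 each). The Atp1b1 share was 0.236 ± 0.129% and 0.714 ± 0.135%, without overlap between genotypes (p = 0.1, two-sided exact permutation test, the smallest possible). Atp1b2, with 1 to 4 counts in each library, made up 0.0115% and 0.0149% (p = 0.6, same exact permutation test). The rise of Atp1b1 therefore left β3 as more than 99% of β transcripts in both genotypes.

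All 6 pump subunits and pump regulators that could be tested were called, 5 higher and 1 lower, beside 62.0% of all genes (31.8% higher and 30.2% lower), and 7 more had too few counts for the test. Fxyd5, the regulator dysadherin, had 2, 15 and 9 counts in WT, against 98, 134 and 150 in KO, a log2 fold change of 3.96 (adjusted p = 0.00013), which was 4.61 without WT replicate 2. Fxyd4, a regulator known from kidney and colon, had 233, 155 and 238 counts in WT, against 11, 14 and 18 in KO, a log2 fold change of -3.74 (adjusted p = 1.1e-05). The FXYD regulators Fxyd5 and Fxyd4 thus changed in opposite directions.

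**Figure D3:**
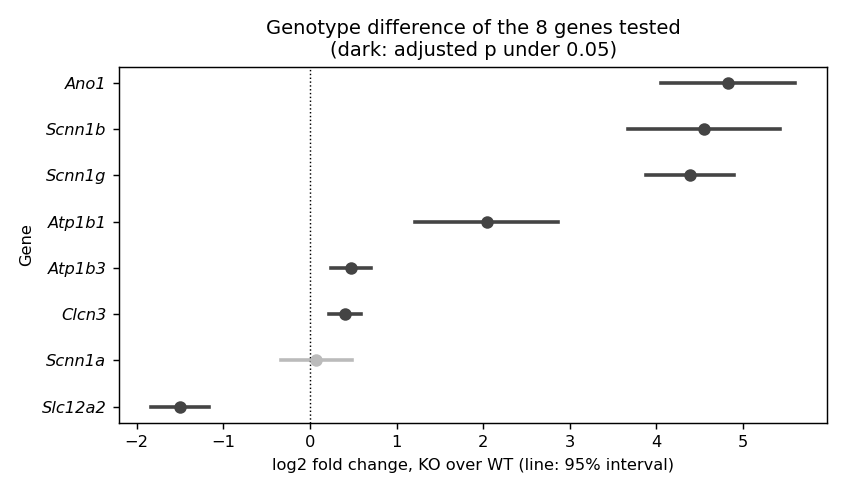
Log2 fold change (KO over WT) of the 8 genes tested, with 95% intervals as lines, dark where the adjusted p was under 0.05. Ano1, Scnn1b and Scnn1g lie above 4, Slc12a2 lies at -1.50 and the interval of Scnn1a spans 0.

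Set beside each other per length, the genes covered several orders of magnitude. In WT the mean FPKM was 296 for Atp1b3, 94.8 for Slc12a2, 41.8 for Scnn1a, 15.0 for Clcn3 and 0.707 for Atp1b1. Lower still came Scnn1g at 0.230, Scnn1b at 0.107, Ano1 at 0.0767 and Cftr at 0.0167, where Scnn1g and Scnn1b, and Scnn1b and Ano1, overlapped in their libraries. In KO Atp1b3 was again first, at 384 FPKM. Scnn1a (41.9 FPKM) and Slc12a2 (31.6 FPKM) then overlapped, although in WT every library had more Slc12a2 than Scnn1a. They were followed by Clcn3 at 18.6, Scnn1g at 4.54, Atp1b1 at 2.74, Scnn1b at 2.37 and Ano1 at 2.14 FPKM, with Cftr last at 0.0633 FPKM. Atp1b1, Scnn1b and Ano1 overlapped with their neighbours in that order.

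The wider set of 126 listed genes, of which 93 could be tested, held 36 that rose and 23 that fell. That is 63.4% called, close to the 62.0% of all genes, and without the genes described one by one it was 61.2% of 85. The largest rises were in the list of exchangers of bicarbonate, protons and anions, with 7 of 14 tested higher and 1 lower. That list also holds the carbonic anhydrase genes Car2 and Car12, which encode enzymes, and both are among the 7 that were higher. Slc26a9, an anion transporter of airway and stomach, had 0.98, 5.99 and 3.01 estimated counts in WT, against 1829, 466 and 1560 in KO, a log2 fold change of 8.65 (standard error 0.748, adjusted p = 3.0e-05), which was 9.35 without WT replicate 2. Slc9a3, the sodium-proton exchanger NHE3, had 0 counts in every WT library and 132, 34 and 70 in KO. The KO mean of Slc9a3 was 28.3 times the mean level that a floor of 3 counts stood for in WT. KO replicate 2 was again the lowest KO library for both. Slc26a11, a sulfate transporter, fell by 0.86 (adjusted p = 0.0048).

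**Figure D4:**
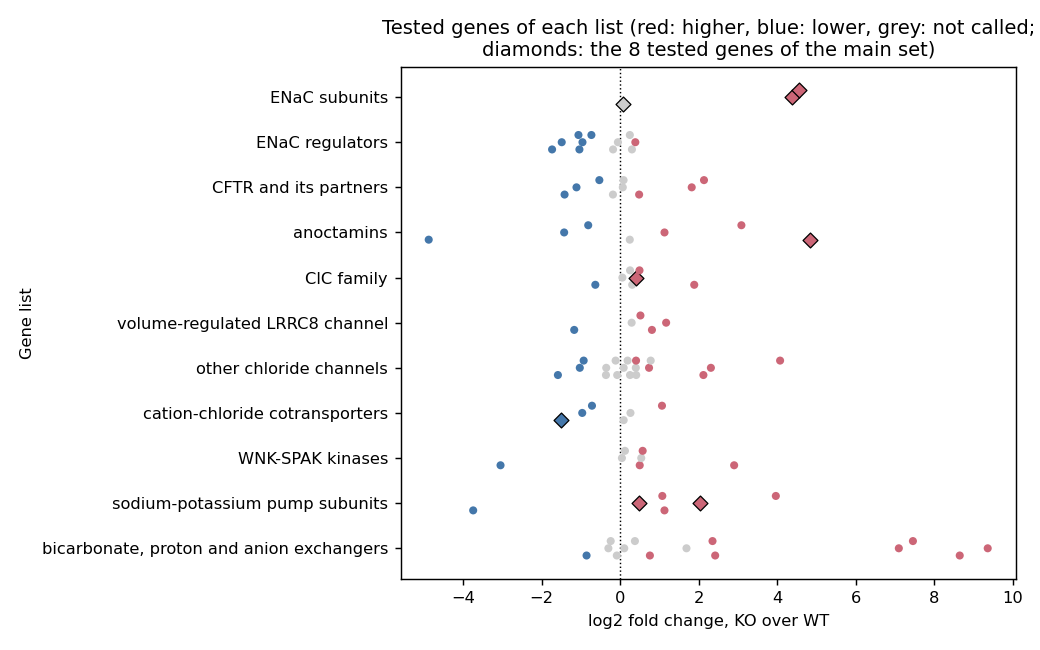
Log2 fold change (KO over WT) of the 93 tested genes by list, red where higher, blue where lower and grey where not called, with the 8 tested genes of the main set as diamonds. Most lists hold genes on both sides of 0, and the points above 8 are Slc26a9 and Slc9a3, of which Slc9a3 had no WT counts so that its plotted value depends on the fit.

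On the scale of log2(FPKM + 1), which compresses low values, limma gave smaller differences for the genes that were low in WT, 1.60 for Scnn1b, 2.17 for Scnn1g, 1.53 for Ano1 and 1.15 for Atp1b1, all still called. Other named genes with low levels were compressed in the same way, Slc26a9 to 3.70, Fxyd5 to 2.33 and Ano4 to -1.87. Slc9a3, without WT counts, went from 9.36 in the main test to 0.72 on this scale.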

How the data were processed

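RNA of the corneal epithelium was measured in 3 WT and 3 KO libraries. The methods of the study describe depletion of ribosomal RNA and BGI single-end sequencing, while an Illumina kit is named in the labels. Reads were cleaned with SOAPnuke, and the submitters' processing notes list Bowtie2 2.2.5 and RSEM 1.2.12. The authors deposited estimated counts, FPKM and TPM per gene and library. The labels name mm9, but the coordinates in the table are those of GRCm38. RSEM divides reads that fit several genes, and between 30.4% and 32.3% of genes in a library had estimated counts more than 0.005 from a whole number. These genes held between 30.9% and 31.1% of the counts in WT libraries and between 39.1% and 39.8% in KO libraries. The deposited FPKM values are per transcript length and library total. The deposited TPM values served only as an alternative for the shares, and the log2 fold changes and p-values of the authors' own comparison were not used.

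After rounding, estimated counts entered the quasi-likelihood test of edgeR 4.0.16 (R 4.3.3) with TMM scaling, filterByExpr and genotype as sole term, with Benjamini-Hochberg adjustment over 13305 genes. Each standard error was obtained from the log2 fold change and the root of its F statistic. Shares and Cftr were compared by exact permutation (scipy 1.17.1). The libraries are described as independent biological samples. The genes described and the lists around them were chosen with earlier results of these data known. Beyond the 9 genes and Rela, up to 2 rises and 2 falls were named per list, largest in log2 fold change among called genes without overlap and averaging 50 counts or more in the genotype where they were higher, and exceptions are marked. Alternatives were DESeq2 1.42.0, RLE factors, library totals, no filter on low counts, limma 3.58.1 on log2(FPKM + 1) and log2(FPKM + 0.1), a replicate block, a length correction, leaving out each library, and shares of summed TPM or estimated counts. The test was tried on simulated data. Overlaps came from GENCODE M21 and promoters from RefSeq. Ano5, Atp1a4, Hsd11b2, Slc12a1, Kera and Cdh5 were not analysed here, and the values of some further listed genes are not reported here. The strand that the table gives for Atp1b3 differs from the annotation and is not printed. Tables and plots were made with Python 3.11.15, pandas 2.3.3, numpy 2.4.6 and matplotlib 3.10.9.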

Additional observations from a re-analysis of the deposited data

How the results depend on the processing

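Of 650 values recomputed under an alternative setting, 4 changed sign (Scnn1a), 4 lost their call (Sgk1) and 3 shares moved by more than 1 SD without changing direction. The other 639 kept their direction and call or, for counts of genes, stayed within 1.5 times. The 7 genes called stayed called in all 14 alternative fits, and Cftr joined them when no filter on low counts was applied, which made 8. The sign of Scnn1a turned with scaling by library totals (-0.0216), in limma with a pseudocount of 1 (-0.0188) or 0.1 (-0.0198) and without KO replicate 1, none of them called, and the cause was not tested. Leaving out each library in turn moved Scnn1a between -0.13 and 0.25. The call of Sgk1 was lost in 4 settings. As shares of summed estimated counts in place of FPKM, the difference between genotypes was 3.94 percentage points for Scnn1b, 0.672 for Atp1b1 and -0.677 for Atp1b3, because counts are not divided by length. Library totals gave 3709 genes higher and 4630 lower, beside 4231 and 4022 in the main test.

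The replicate numbers only count the libraries of each genotype. Deviations of same-numbered libraries correlated at 0.034, -0.010 and 0.061 across genes, so they were not taken as pairs. With the replicate number as a block, 8083 genes were called in place of 8253, and 7 of the genes described in both.

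Leaving out 1 library at a time gave between 7282 and 8145 genes called, 7 of the genes described each time, and 4 or 5 at the study threshold. Low counts limit Cftr, and the WT values of Scnn1b, Scnn1g and Ano1.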

Other observations

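The listed genes of carbon dioxide and bicarbonate handling included differences beyond those in the sodium and chloride genes. Car12, a membrane-bound carbonic anhydrase, had 55, 68 and 109 counts in WT, against 12346, 14642 and 10868 in KO, a log2 fold change of 7.45 (standard error 0.285, adjusted p = 5.6e-07). Car2, the cytosolic carbonic anhydrase, had 3, 2 and 7 counts in WT, against 588, 613 and 368 in KO, a log2 fold change of 7.09 (standard error 0.371, adjusted p = 2.3e-06). Both were already counted above in the list of exchangers, and both were chosen for description after their values were seen. For both, WT replicate 3 was the highest WT library, as it was for Scnn1b, Scnn1g, Ano1 and Atp1b1. Other genes higher in KO, Fxyd5, Slc26a9, Ano6 and Cftr among them, were instead highest in WT replicate 2. Car12 and Car2 were highest in KO replicate 2, the lowest KO library for Ano1, Slc26a9 and Slc9a3.

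The genes whose profile over the 6 libraries was closest to that of Scnn1a, by the root mean square difference of log2 CPM centred on WT, were Chrnb2 (0.0513), Lmtk2 (0.0693) and Axin1 (0.0741). Those closest to Atp1b1 were Dusp1 (0.136), Serpinb6b (0.137) and Irs1 (0.199). No such genes were sought for Cftr, which had too few counts.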
